A study of Rattus norvegicus with 15 samples.

Results

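Genes of the mitochondrial protein import machinery were followed in the ventral tegmental area, the midbrain region whose dopamine neurons project to the nucleus accumbens and cortex. The 10 genes were Timm8a1, Timm8b, Timm9, Timm10, Timm13, Timm23, Timm44, Tomm20, Tomm22 and Tomm70, and every probe set that the array annotation names with exactly 1 of these symbols was taken. That gave 13 probe sets of 9 genes, out of 31042 probe sets that are not controls. Timm23, the channel of the inner membrane, had none, because its probe set also carries the symbols of a related gene and a pseudogene. Of the 13 probe sets, 12 passed the filter on dim probe sets, and these 12 cover all 9 genes. The choice of genes was made with the ethanol and water values known and centres on Timm8a1, so the ethanol minus water values of the 10 genes are given here as a description, without a test.

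RNA came from 7 rats that drank ethanol and from 8 age-matched rats that drank water, with 1 Affymetrix array per rat. Per the title these are alcohol-preferring (P) rats, selected over generations for drinking alcohol freely, in a study of loss of control. The design text also mentions a line bred for low drinking, but no label assigns a rat to it. The labels give no age, sex, litter or day of dissection. Ethanol animal number 3 was not analysed here. The arrays were labelled in 2 cycles of amplification from 25 ng of total RNA. Values are log2 units after RMA, a method that corrects background, makes the arrays alike in distribution and gives 1 value per probe set. A log2 difference of -1 is a halving, and differences are ethanol minus water throughout.

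Nearly all mitochondrial proteins are made in the cytosol and threaded through the membranes. At the outer membrane the TOM complex takes them in: Tomm20 binds amino-terminal targeting signals, Tomm70 binds carriers and other proteins with internal signals, and Tomm22 gathers both receptors around the pore. Small TIM proteins then shield hydrophobic proteins in the intermembrane space, as a Timm9 and Timm10 complex and, from work in yeast and human cells, as a complex of a Timm8 protein with Timm13. Timm44 tethers the import motor to the Timm23 channel on the matrix side. Loss of human TIMM8A causes a deafness and dystonia syndrome.

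Transcripts that mark the region were high: Th, the rate-limiting enzyme of dopamine synthesis, averaged 14.94 ± 0.22 log2 units in ethanol rats (SD, n = 7) and 14.80 ± 0.26 in water rats (SD, n = 8). The dopamine transporter Slc6a3 averaged 14.66 ± 0.25 and 14.51 ± 0.25 log2 units in the same groups. The vesicular transporter Slc18a2 averaged 14.39 ± 0.19 and 14.18 ± 0.26 log2 units, and no kept probe set named the dopamine neuron markers Pitx3, En1 or Lmx1b. RNA integrity, read as the 3′ minus 5′ difference of control transcripts, averaged 1.08 ± 0.05 log2 units in ethanol and 1.11 ± 0.05 in water rats (n = 7 and 8, two-sided exact permutation p = 0.250).

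The sequences just before the transcription start are shown for Timm8a1, whose level differs between the groups, for its paralogue Timm8b, and for Timm10 and Tomm22, which vary together across rats as described further on. Each run is the 250 bases upstream of the start, 5′ to 3′ on the gene's strand, from the RefSeq promoter table of the GRCr8 build. Capitals mark matches, on either strand, to CCGGAAG (a site of ETS factors such as GABP), to CCAAT (the CCAAT box) and to GCGC, any 2 bases and GCGC again (a site of NRF1).
Timm8a1, chrX:102015445-102015694, minus strand: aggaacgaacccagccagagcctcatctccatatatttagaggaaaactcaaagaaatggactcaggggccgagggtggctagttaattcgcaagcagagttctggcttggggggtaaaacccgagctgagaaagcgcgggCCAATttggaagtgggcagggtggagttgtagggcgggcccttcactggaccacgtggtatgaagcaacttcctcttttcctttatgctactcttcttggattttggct
Timm8b, chr8:59850487-59850736, plus strand: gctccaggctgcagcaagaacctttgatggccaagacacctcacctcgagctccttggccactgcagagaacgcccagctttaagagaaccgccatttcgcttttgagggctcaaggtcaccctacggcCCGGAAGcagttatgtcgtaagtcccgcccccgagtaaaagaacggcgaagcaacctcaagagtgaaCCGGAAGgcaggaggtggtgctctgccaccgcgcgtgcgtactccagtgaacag
Timm10, chr3:90314889-90315138, plus strand: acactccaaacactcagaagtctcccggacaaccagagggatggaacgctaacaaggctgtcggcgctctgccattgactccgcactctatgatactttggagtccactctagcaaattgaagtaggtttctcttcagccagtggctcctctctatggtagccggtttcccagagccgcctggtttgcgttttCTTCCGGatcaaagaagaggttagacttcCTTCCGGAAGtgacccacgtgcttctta
Tomm22, chr7:113107056-113107305, plus strand: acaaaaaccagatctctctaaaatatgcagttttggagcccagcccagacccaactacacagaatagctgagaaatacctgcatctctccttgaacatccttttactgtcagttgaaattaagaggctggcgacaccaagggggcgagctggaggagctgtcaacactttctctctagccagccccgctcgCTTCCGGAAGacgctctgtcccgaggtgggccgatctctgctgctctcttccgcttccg
The Timm8a1 window holds a CCAAT match and neither of the other motifs. Timm8b, Timm10 and Tomm22 hold CCGGAAG. In Timm10 and Tomm22 a pair of these matches overlaps, because the run reads the same on both strands. Over all 10 genes, 6 windows hold CCGGAAG (Timm8b, Timm10, Timm23, Tomm20, Tomm22 and Tomm70), 2 hold CCAAT (Timm8a1 and Timm44) and 1 holds the NRF1 motif (Tomm20). Timm9 and Timm13 hold none of them, although Timm13 is the import gene that varied most closely with Timm10 (r = 0.90). A link between motifs and variation across rats was not tested. Among 27457 RefSeq promoter windows of the same length, 7.74% hold CCGGAAG, 34.3% hold CCAAT and 5.30% hold the NRF1 motif. These matches are letters in a window, and binding was not measured.

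Timm8a1 was lower in ethanol rats in both of its probe sets. In the one that the array annotation ties to an expressed sequence tag, here the EST probe set, the 7 ethanol rats had a lowest value of 10.31, a median of 10.36 and a highest of 10.41 log2 units, against 10.60, 10.69 and 10.82 in the 8 water rats. No ethanol rat reached the lowest water rat. The mean was 10.36 ± 0.03 in ethanol rats (SD, n = 7) and 10.70 ± 0.08 in water rats (SD, n = 8), a difference of -0.34 log2 units (SE 0.04), so that the ethanol level was 0.788 of the water level. Ethanol rats also lay closer to each other than water rats did.

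The other, tied to the RefSeq transcript and here the RefSeq probe set, ran from 8.95 over a median of 9.18 to 9.31 log2 units in ethanol rats, against 9.30, 9.56 and 9.73 in water rats. Here the groups touched: ethanol rat 8, at 9.31, lay just above water rat 3, at 9.30. The means were 9.17 ± 0.12 in ethanol rats (SD, n = 7) and 9.54 ± 0.14 in water rats (SD, n = 8), a difference of -0.37 log2 units (SE 0.07), or 0.773 of the water level. In each probe set all 7 ethanol rats lay below the water mean.

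**Figure D1:**
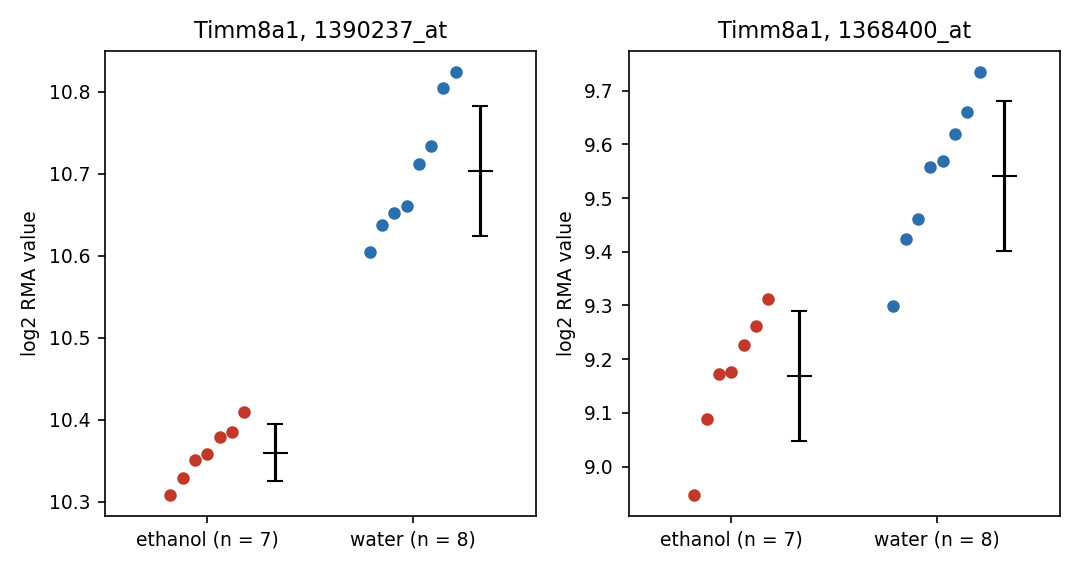
Each point is 1 rat's log2 RMA value of Timm8a1 in each of its 2 probe sets, with ethanol rats on the left and water rats on the right of each panel, points spread sideways only for legibility, and mean ± SD beside them (the vertical axes differ and do not start at 0). In the EST probe set (left panel) the ethanol rats end at 10.41 and the water rats begin at 10.60, while in the RefSeq probe set (right panel) ethanol rat 8 at 9.31 passes water rat 3 at 9.30.

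By limma's moderated test over all 18625 kept probe sets, 173 (0.929%) had an adjusted p below 0.05, of which 101 (0.542%) were lower and 72 (0.387%) higher in ethanol rats. Among the 12 kept import probe sets, 2 passed, both of Timm8a1 and both lower. Groups that did not overlap, with ethanol rats lower, were found in 70 probe sets of the array (0.376%), and the Timm8a1 EST probe set is among them. As Timm8a1 was picked from this contrast, nothing is read from these counts.

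Markers of other cells differed between the same rats. Of 12 measured oligodendrocyte and myelin markers, 4 fell: Ugt8, Fa2h, Mal and Cldn11 (log2 -0.69, -0.43, -0.39 and -0.25, limma adjusted p = 0.00413, 0.0210, 0.0369 and 0.0369). Opalin, of the same list, had a higher mean in ethanol rats (log2 0.20, SE 0.08, limma adjusted p = 0.327, chosen after its value was seen). The summed linear level of all 12, relative to the water mean, ran from 0.834 to 0.972 in ethanol rats and from 0.924 to 1.15 in water rats. Of 13 microglial markers, 4 rose: Fcer1g, Tyrobp, Trem2 and Ctss (log2 0.40, 0.41, 0.32 and 0.36, limma adjusted p = 0.00327, 0.00824, 0.0240 and 0.0411), and the sum of all 13 ran from 1.09 to 1.37 in ethanol rats and from 0.840 to 1.19 in water rats. With the oligodendrocyte list mean as a covariate, which was added once the data had been seen, the Timm8a1 differences were -0.31 (SE 0.05) in the EST probe set and -0.36 (SE 0.09) in the RefSeq probe set. With the microglial list mean they were -0.39 (SE 0.05) and -0.35 (SE 0.10), and the RefSeq probe set then no longer passed the threshold. Summed levels of dopamine neuron markers (8 measured, none called, smallest adjusted p = 0.469) ran from 0.901 to 1.35 in ethanol and from 0.752 to 1.24 in water rats. All 8 had higher means in ethanol rats (median log2 0.16), as did all 13 microglial markers (median 0.27). Of the 12 oligodendrocyte markers 11 had lower means, beside 49.1% of all genes. These counts of signs were not tested. None of 9 astrocyte, 4 other neuronal and 6 endothelial markers passed (smallest limma adjusted p = 0.0890, 0.758 and 0.444). The oligodendrocyte and microglial list means hold markers that differed between the groups, so as covariates they cannot be fully separated from ethanol. The part of other cell types in the Timm8a1 difference was not tested. In tissue RNA, fewer cells of a type and less RNA per cell cannot be told apart.

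The other small TIM chaperones lay close to 0. Timm8b, the paralogue of Timm8a1, ran from 13.75 over a median of 13.79 to 13.86 log2 units in ethanol rats and from 13.71 over 13.86 to 14.00 in water rats. All 7 ethanol rats were below the water mean, but the ranges overlapped over the whole ethanol range, and the difference was -0.07 (SE 0.04). Timm13, the partner of the Timm8 proteins, had medians of 12.15 in ethanol and 12.20 in water rats (ranges 12.12 to 12.29 and 12.05 to 12.33), with a difference of -0.03 (SE 0.05). Timm9 had medians of 10.52 in ethanol and 10.55 in water rats (difference 0.01, SE 0.04), and Timm10 of 11.55 and 11.51 (difference -0.02, SE 0.06). The spread of Timm10 was wider in water rats, at 11.35 to 11.77, than in ethanol rats, at 11.42 to 11.61.

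Set against its partners within each array, Timm8a1 was lower in ethanol rats as well. The log2 value of the EST probe set minus that of Timm13, counted from the water mean of that difference, ran from -0.41 to -0.27 in ethanol rats and from -0.21 to 0.23 in water rats, with no overlap. Minus Timm8b it ran from -0.37 to -0.18 in ethanol rats and from -0.18 to 0.12 in water rats, where the ends meet. These differences show unequal change between probe sets and carry the choice of Timm8a1, so no test is given.

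At the outer membrane, the presequence receptor Tomm20 had medians of 13.81 log2 units in ethanol and 13.80 in water rats in its brighter probe set (difference 0.04, SE 0.03) and differed by 0.02 (SE 0.04) in the other. Tomm22 had medians of 11.83 and 11.84 (difference -0.02, SE 0.05). The probe sets of Tomm70, the receptor of carrier proteins, disagreed in part. The brighter was at 12.31 ± 0.02 in ethanol and 12.30 ± 0.07 in water rats (difference 0.00, SE 0.03). The dimmer was at 9.88 ± 0.03 and 9.98 ± 0.13 (difference -0.10, SE 0.05), and all 7 ethanol rats lay below the water mean, inside the water range of 9.80 to 10.19.

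For the import motor, Timm44 had medians of 7.90 log2 units in ethanol and 7.89 in water rats in its kept probe set (difference -0.01, SE 0.08), the widest error among the kept import probe sets. Its other probe set fell under the filter and was left out of the test over kept probe sets. It ran from 4.71 to 4.94 log2 units in ethanol rats and from 4.69 to 4.99 in water rats. Over the 10 kept probe sets of genes other than Timm8a1 the differences ran from -0.10 to 0.04 log2 units. The median SE of a kept probe set was 0.056, and the lack of a call does not show that these transcripts were equal in both groups.

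**Figure D2:**
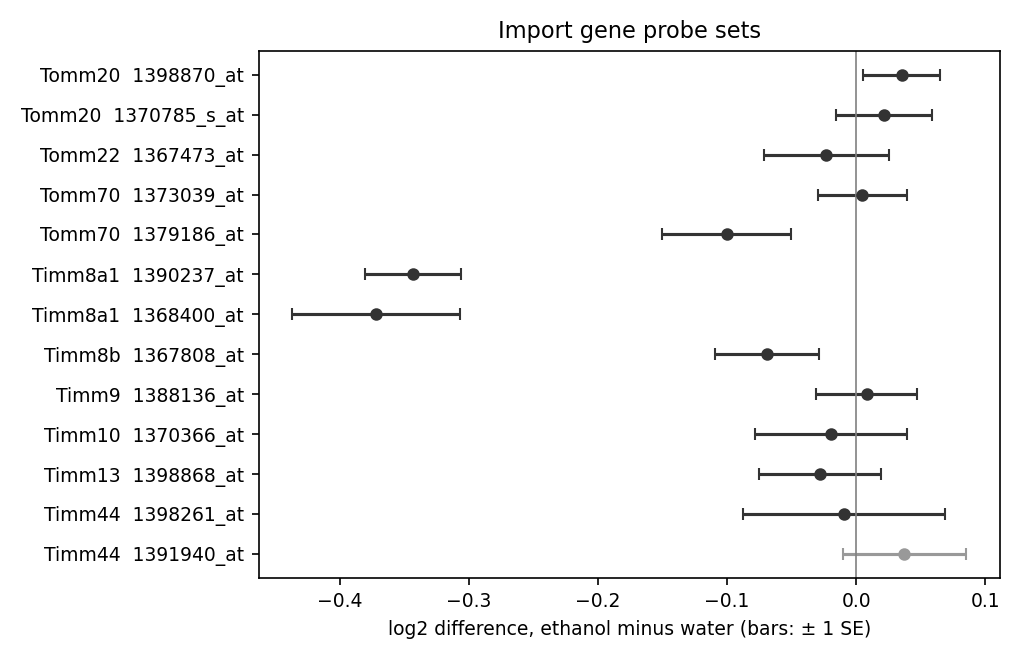
Points are the log2 differences, ethanol minus water, of the 13 import probe sets, ordered from outer membrane receptors (top) to the import motor (bottom), with bars of ± 1 SE, and the probe set under the filter in grey. The Timm8a1 points lie at -0.34 and -0.37, and the other 10 kept probe sets lie between -0.10 and 0.04.

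The choice of genes was made with the contrast between groups known. The test of that contrast uses the spread within groups, so the correlations below are not wholly free of the choice. The contrast does not show which genes vary together from rat to rat. Each value was therefore centred on its group mean, and import genes, each by its brightest kept probe set, were correlated over the 15 arrays. Among the 8 genes other than Timm8a1, 25 of 28 pairs correlated positively, with a median r of 0.32, beside 51.1% of pairs and a median r of 0.01 over all 10256 genes with a kept probe set. The closest pair was Timm10 and Timm13 (r = 0.90), followed by Timm10 and Tomm22 (0.80) and Timm8b and Tomm22 (0.78). The lowest was Timm44 and Tomm20 (-0.45). In water rats alone (n = 8) the median over the 28 pairs was 0.58, and in ethanol rats alone (n = 7) it was 0.09.

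By its EST probe set, Timm8a1 followed none of the other genes in a way that passed a test. The RefSeq probe set was not set against the other genes by itself, so the result covers the EST probe set only. Over 9 relations of the EST probe set (8 genes and the RefSeq probe set), Pearson's r ran from -0.41 with Timm10 to 0.43 with Timm44, and no permutation p passed (smallest p = 0.116 before and 0.771 after Benjamini-Hochberg adjustment, 100000 permutations within groups). For Timm44, Spearman's rho was 0.43 (permutation p = 0.109, adjusted 0.853), and r was 0.30 without the 2 arrays farthest from the median. For Timm8b, r was 0.03 and rho -0.10 (permutation p = 0.931 and 0.752). The 2 Timm8a1 probe sets, which differed alike between the groups, did not follow each other within groups (r = -0.03, rho = -0.15, permutation p = 0.916 and 0.618, adjusted 0.931 and 0.891). Averaging the kept probe sets of each gene gave r = 0.75 with Timm8b (rho = 0.71, permutation p adjusted over 8 relations 0.0153 for r and 0.0582 for rho), and r was 0.55 without the 2 farthest arrays. The RefSeq probe set weighs more in the variation of that average. Its SD was 0.12 in ethanol and 0.14 in water rats, against 0.03 and 0.08 for the EST probe set.

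**Figure D3:**
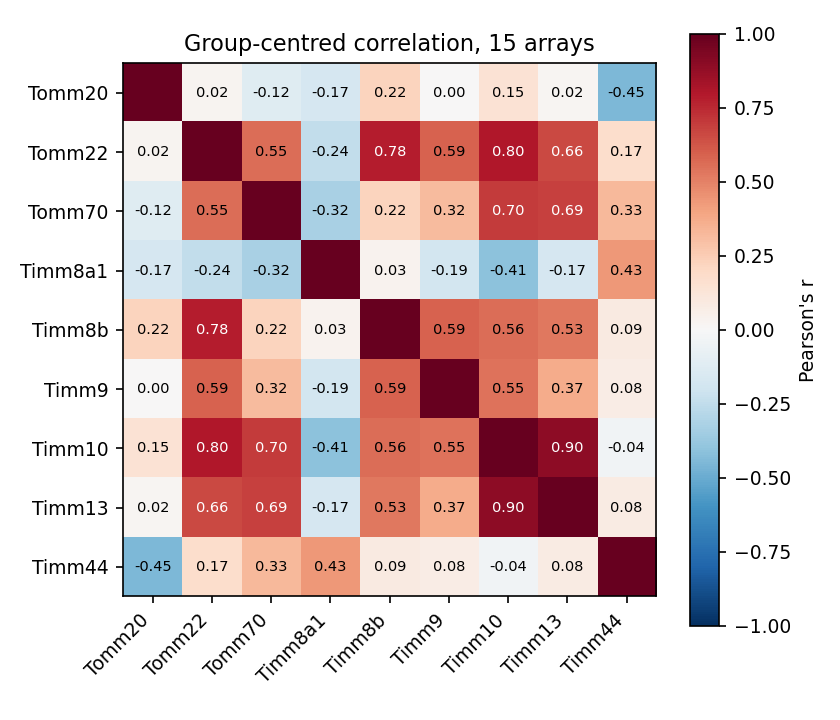
The matrix gives Pearson's r between import genes over 15 arrays after centring on the group mean, with genes ordered from outer membrane receptors to the import motor and colour from -1 (blue) to 1 (red). Tomm22, Tomm70, Timm8b, Timm9, Timm10 and Timm13 form a block of positive values up to 0.90. The row of Timm8a1, which shows its EST probe set only, lies between -0.41 and 0.43.

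The same centred values were set beside other nuclear-encoded mitochondrial transcripts. A list of respiratory chain and ATP synthase genes was made by symbol pattern, so it can include genes that are not subunits. The mean of its 74 measured genes was centred in the same way. It was correlated with the 9 genes (Timm8a1 by its EST probe set) and the RefSeq probe set of Timm8a1. Of these 10 relations, 7 passed after adjustment (Pearson's r, 100000 permutations within groups, two-sided). The same 7 had an unadjusted p below 0.05, all with positive r. Of 10173 other kept genes 32.2% did in either direction and 17.4% with positive r, and 12.7% had an r of at least 0.66, the lowest among the 7. Timm10 followed it most closely (r = 0.93, rho = 0.90, permutation p = 2.00e-05 and 1.60e-04, adjusted 2.00e-04 and 8.00e-04). Its r was 0.88 without the 2 farthest arrays, 0.74 within ethanol rats and 0.96 within water rats. Tomm22 came next (r = 0.88, rho = 0.90, permutation p = 1.90e-04 and 8.00e-05, adjusted 9.50e-04 and 8.00e-04), with r = 0.82 without the 2 farthest arrays, 0.81 in ethanol and 0.92 in water rats.

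Timm13 (r = 0.82, rho = 0.77, permutation adjusted p = 0.00290 and 0.00673) and Timm9 (r = 0.66, rho = 0.69, permutation adjusted p = 0.00435 and 0.00802) also followed the list. Without the 2 farthest arrays r was 0.74 for Timm13 and 0.66 for Timm9. The values for Timm13 were 0.36 in ethanol and 0.96 in water rats, and for Timm9 0.53 and 0.81. Timm8b (r = 0.67, rho = 0.54) and Tomm70 (r = 0.67, rho = 0.62) passed by Pearson's r (permutation adjusted p = 0.0292 each) but not by rank (0.0921 and 0.0645). In Tomm70 r was -0.06 in ethanol and 0.77 in water rats, and a difference between the groups was not tested. The Timm8b relation did not pass without water rat 2, 3 or 8 (r from 0.55 over all fits), nor did that of Tomm70 without water rat 4, 5, 7 or 8 (r from 0.59).

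The Timm8a1 probe sets parted here. For the EST probe set r was -0.29 and rho -0.22 (permutation p = 0.402 and 0.507, adjusted 0.503 and 0.603), and r was 0.05 without the 2 farthest arrays. For the RefSeq probe set r was 0.70 and rho 0.74 (permutation p = 0.00549 and 0.00401, adjusted 0.0110 and 0.00802), and r was 0.58 without them. Its relation passed in all 15 fits with 1 array left out (highest permutation adjusted p = 0.0416). It did not pass without water rats 7 and 8 together (r = 0.59, permutation adjusted p = 0.0765). Nor did that of Tomm70 (r = 0.51, permutation adjusted p = 0.273), while those of Timm8b, Timm9, Timm10, Timm13 and Tomm22 passed. Neither Tomm20 (r = -0.07, rho = -0.18) nor Timm44 (r = 0.10, rho = 0.11) followed the list (permutation adjusted p = 0.826 and 0.822 for r, 0.603 and 0.697 for rho), and r was -0.50 and 0.47 without the 2 farthest arrays.

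The first principal component of all centred probe sets held 32.4% of their variance. With it removed, 4 relations passed: Timm8b (r = 0.69), Timm10 (0.69) and Timm9 (0.58) positively and Timm44 negatively (-0.65), each with a permutation adjusted p of 0.0365, while by rank none of the 10 passed (smallest permutation adjusted p = 0.0733). Tomm22 was then at 0.54 and Timm13 at 0.42 (permutation adjusted p = 0.0946 and 0.134). The RefSeq probe set of Timm8a1 was at 0.49 and Tomm70 at -0.15 (permutation adjusted p = 0.0971 and 0.633), so neither passed. The labels name no batch, so the relations could not be computed within one. With the respiratory list mean as a covariate of the group comparison, the Timm8a1 differences were -0.35 (SE 0.04) in the EST probe set and -0.33 (SE 0.05) in the RefSeq probe set.

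**Figure D4:**
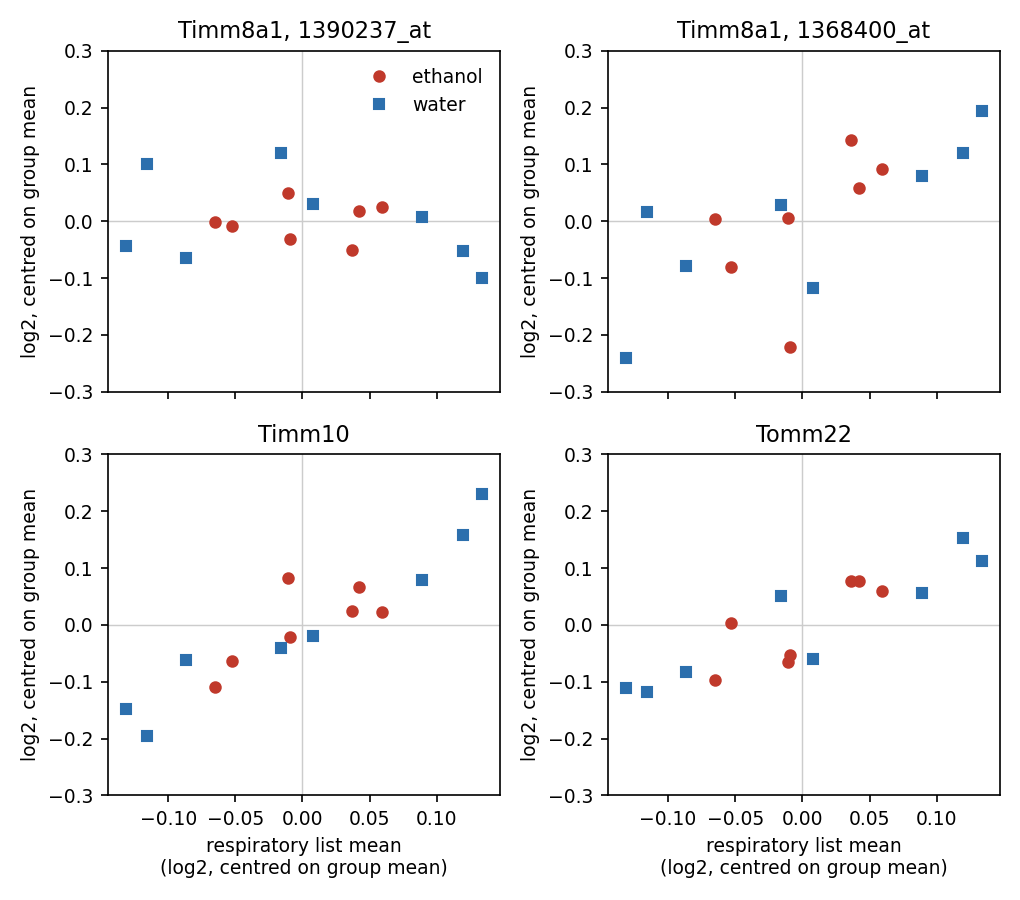
Each point is 1 rat (circles ethanol, squares water), with the mean of 74 respiratory chain and ATP synthase transcripts on the horizontal axis and a Timm8a1 probe set, Timm10 or Tomm22 on the vertical axis, all in log2 units centred on the group mean. Timm10 and Tomm22 follow the list (r = 0.93 and 0.88), the RefSeq probe set (upper right panel) less tightly (0.70), and the EST probe set (upper left) does not follow it upward (-0.29).

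Genes most like Timm8a1 from rat to rat were ranked among 10177 genes by r with the EST probe set over the 15 centred arrays. The highest were Snap29 (r = 0.82), Tmem260 (0.80), Ric3 (0.77), Nfyb (0.74) and Plekhf2 (0.74), and the most negative were Drc3 (-0.91), Zic2 (-0.76) and Rabl2 (-0.75). With the RefSeq probe set the first 5 had r from -0.35 to -0.10, so the likeness was not shared by the other Timm8a1 probe set. Between the groups these 5 differed by -0.10 (Snap29), -0.02 (Tmem260), 0.03 (Ric3), 0.04 (Nfyb) and 0.12 (Plekhf2) log2 units. These are the ends of a long ranking and are given without a test.

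The neighbours of Timm8a1 on the X chromosome in the RefSeq table, the kinase gene Btk and Taf7l, were both under the filter. Btk, a kinase of B cells and myeloid cells, averaged 5.49 ± 0.18 log2 units in ethanol rats (SD, n = 7) and 5.38 ± 0.18 in water rats (SD, n = 8). Taf7l averaged 4.56 ± 0.07 and 4.49 ± 0.06 in the same groups. In a fit without the filter the differences were 0.12 (SE 0.09) for Btk and 0.08 (SE 0.04) for Taf7l, outside the test over kept probe sets.

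The rest of the import machinery was examined through 4 lists of genes other than the 10 above. Of 40 listed genes 38 were measured, none passed limma's test over all probe sets and none reached an unadjusted p below 0.05 (12.1% of all kept probe sets and 12.4% of all genes did), and the median difference was -0.02, beside 0.00 over all 10256 genes. Among 11 genes of the TOM complex and outer membrane sorting (median -0.03), the smallest p-values belonged to the metaxins Mtx1 (log2 0.07, SE 0.04, limma adjusted p = 0.479) and Mtx2 (-0.06, SE 0.04, 0.576) and to the pore protein Tomm40 (-0.06, SE 0.05, 0.627). Among 11 genes of the TIM23 channel and motor (median -0.03) they were Timm17b (0.10, SE 0.05, limma adjusted p = 0.502), the motor co-chaperone Dnajc19 (-0.06, SE 0.04, 0.540) and Timm21 (-0.08, SE 0.05, 0.554).

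For the TIM22 carrier pathway and the oxidative import of the intermembrane space, 8 of 9 genes were measured and had a median of 0.00. Aifm1, which partners the import oxidoreductase Chchd4 in human cells, was at -0.13 (SE 0.07, limma adjusted p = 0.472), Timm29 at -0.04 (SE 0.04, 0.748) and the kinase Agk at 0.02 (SE 0.05, 0.893). Timm22 itself, the carrier channel, was at 0.01 (SE 0.05, chosen after its value was seen). Of 8 genes of presequence processing and matrix folding (median -0.03), the peptidase subunit Pmpca was at -0.06 (SE 0.05, limma adjusted p = 0.674) and the chaperonins Hspd1 and Hspe1 at -0.05 and -0.04 (SE 0.04 each, 0.694 and 0.696).

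None of 15 genes of the carrier family passed either (median -0.04, 11 with lower means). The small TIM chaperones are known to escort some proteins of this family in yeast and human cells, not each of the 15. Slc25a1, the citrate carrier, had the smallest p (10.42 ± 0.12 in ethanol and 10.65 ± 0.18 in water rats, SD, n = 7 and 8, log2 -0.23, SE 0.07, limma adjusted p = 0.195), followed by Slc25a36 (0.07, SE 0.03, 0.402). Slc25a13, an aspartate and glutamate carrier whose import uses TIMM8A and TIMM13 in human cells, was at -0.15 (SE 0.08, 0.479), with all 7 ethanol rats below the water mean. The same held for Mtx2, Dnajc19 and Tomm34, which were not called either. The share of all genes with this pattern was not counted, here or for the import genes above.

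Of 11 regulators of mitochondrial biogenesis (median -0.02), Pprc1 was at 0.10 (SE 0.04, limma adjusted p = 0.379), Nrf1 at 0.10 (SE 0.07, 0.581) and the mitochondrial RNA polymerase Polrmt at -0.08 (SE 0.06, 0.623). Of 11 stress and protease genes (median 0.00), the proteases Spg7, Clpp and Lonp1 were at -0.14 (SE 0.06), 0.08 (SE 0.04) and -0.09 (SE 0.05), with limma adjusted p of 0.360, 0.425 and 0.447. Among the 74 measured respiratory chain and ATP synthase genes, 67 had lower means in ethanol rats (90.5%, beside 49.1% of all genes), and the median was -0.04. None passed, and 1 had an unadjusted p below 0.05 (1.35%, beside 12.4% of all genes): Cox7a1 (log2 -0.15, SE 0.07, limma adjusted p = 0.405). Ndufs4 was at -0.07 (SE 0.03, 0.451) and Cox7b at -0.13 (SE 0.07, 0.496). These genes vary together across rats, so the count of signs is not 74 separate observations.

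**Figure D5:**
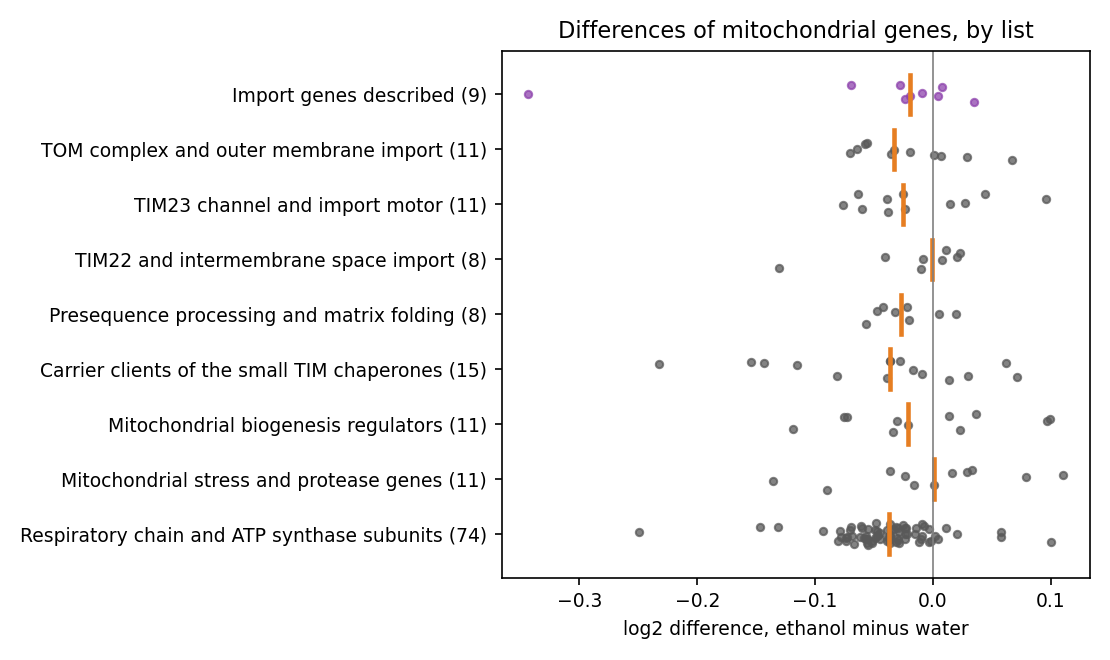
Points are genes, each by its brightest kept probe set, placed by the log2 difference, ethanol minus water, in the 10 import genes (9 measured, top row) and in 8 lists of other mitochondrial genes, with an orange bar at each list's median and the number measured in brackets. Timm8a1 at -0.34 is the only point below -0.25, and list medians lie between -0.04 and 0.00.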

How the data were processed

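The authors deposited log2 expression values of 15 arrays, and RMA is the tool listed in the submitters' processing notes. Its software and version: not given in the sources used here. It removes shifts common to most transcripts and compresses differences of very dim and very bright probe sets. The table had 0 missing values and 0 unused columns of values. No detection calls were used, and the number of arrays limits the precision.

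Probe sets were named through the platform annotation kept by GEO: of 31042 that are not controls, 20837 had 1 symbol, 425 several and 9780 none. A symbol listed more than once for a probe set counted as 1. Probe sets whose mean over the 15 arrays reached the 40th percentile, 6.94 log2 units, were kept (18625) and compared by linear models without covariates (limma 3.58.1, lmFit and eBayes, two-sided, under R 4.3.3), with Benjamini-Hochberg adjustment over all of them. The fit and the permutation test were tested on simulated data. Correlations used values centred on group means and permutations within groups (Python 3.11.15, numpy 2.4.6). Each rat is 1 replicate, as the labels number them.

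The 10 genes and all gene lists were chosen with earlier results of these data known. Genes named beyond them are those past the threshold in a list or else its 3 smallest p-values, the direct neighbours of Timm8a1, the 5 genes most like it and the 3 most unlike. The array files name no genome build, so coordinates are printed only for the RefSeq promoter sequences. Same-numbered rats of both groups were not treated as pairs: the correlation of their deviations ran from -0.415 to 0.295 over 7 numbers. Alternatives were other filters, renormalization, array weights, a variance trend, covariates, a replicate block and leaving arrays out.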

Additional observations from a re-analysis of the deposited data

Results flagged for a closer look

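In the dimmer Tomm70 probe set ethanol rat 1 had 9.95 log2 units, while the other ethanol rats lay between 9.85 and 9.88, a gap of 0.688 of the group's whole range against a critical value of 0.568. Of 26 groups of import gene values examined (13 probe sets in 2 groups), this was the 1 that stood out, and chance gives about 5% of groups.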

How the results depend on the processing

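The Timm8a1 differences, which carry the choice of the gene, ran from -0.39 to -0.31 in the EST probe set and from -0.41 to -0.33 in the RefSeq probe set over all settings tried, marker covariates included. The count of import probe sets past the threshold was 1 in place of 2 with the microglial marker mean as a covariate. The count of called probe sets, 173 as reported (72 higher, 101 lower), was 495 (198 higher, 297 lower) after adjustment for the first principal component, 346 (279 higher, 67 lower) with the oligodendrocyte marker mean, 252 (18 higher, 234 lower) with the microglial one, and from 101 to 184 with 1 array left out (101 without ethanol rat 7, 102 without ethanol rat 8). With animal number as a replicate block, which the check of pairing did not bear out, it was 59, the called cell type markers numbered 1 in place of 8, and the count of other mitochondrial genes stayed at 0. Called cell type markers were 5 with no filter and 4 to 9 with 1 array left out (4 without ethanol rat 7, and 5 each when ethanol rat 5, 6 or 8, or one of water rats 1, 3 and 7, was dropped). Of the 149 other mitochondrial genes, 1 passed with the principal component as a covariate (Slc25a22, log2 -0.14) and 1 with the microglial mean (Slc25a13, -0.45), against 0 as reported, when 5 had an unadjusted p below 0.05 (3.36%, beside 12.4% of all genes). Averaging probe sets gave 1 relation of Timm8a1 (with Timm8b) in place of 0 for the EST probe set alone. Leaving out 1 array gave 0 for that probe set in every fit. The count of relations with the respiratory list, 7 as reported, was 4 with the first principal component removed and 5 to 7 with 1 array left out. Of those 4, Timm8b, Timm9 and Timm10 were among the 7. Timm44 was not, and its relation was negative. The marker covariates and the arrays left out of the respiratory relations were chosen after seeing the data, and the causes of these shifts were not tested. Signs of Timm9, Timm10, Timm13, Timm44, Tomm22 and the brighter Tomm70 probe set, all near 0 as reported, changed in some of these settings, and that of the dimmer Tomm20 probe set under a marker covariate. With the marker covariates included, Timm10 ran from -0.14 to 0.13 and Timm13 from -0.11 to 0.08. The kept Timm44 probe set ran from -0.05 to 0.09 and the brighter Tomm70 probe set from -0.05 to 0.07.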

Other observations

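The probe set whose symbols include Timm23, a related gene and a pseudogene was left out of the import genes because its signal cannot be assigned to 1 of them. It averaged 11.91 ± 0.05 log2 units in ethanol rats (SD, n = 7) and 11.95 ± 0.11 in water rats (SD, n = 8), a difference of -0.04 (SE 0.05, limma adjusted p = 0.773). Timm8a2, a rodent relative of Timm8a1, lay under the filter, at 5.82 ± 0.06 in ethanol and 5.84 ± 0.13 in water rats (SD, n = 7 and 8). Both were looked at after the values of Timm8a1 had been seen.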
